A study of Mus musculus with 6 samples.

Results

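The Ccdc genes are mouse genes named only for a coiled-coil domain in the protein they encode, and they were taken here as every gene whose symbol is Ccdc followed by a number and at most 1 letter. Of the 17132 genes with a polyA site (pA) in the deposited table, 142 were Ccdc genes, and they held 714 of its 73540 gene and pA rows. Of these rows, 353 were in last exons, 270 in introns, 10 in upstream exons and 81 antisense to the region before a transcription start site (TSS). A last-exon pA of its own was listed for 132 genes, at least 2 of them for 84, an intronic pA for 91 and an upstream antisense pA for 49. The other 10 genes had no last-exon read and are counted here only by their other pAs. Newer symbols, taken from the gene name table, differed for 37 genes and are given beside the deposited name.

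The samples were whole testes of FVB mice, untreated, removed at 1, 2, 3, 4, 5 and 6 weeks after birth, with 1 library per week and 6 in all. The RNA was sequenced by 3'READS (3' region extraction and deep sequencing), which reads the end of each poly(A)+ transcript, so that a read count is a count of transcript ends at a pA. The 1–3 week samples were compared with the 4–6 week samples, 3 libraries in each, as groups along the first wave of spermatogenesis. The sources used here do not say how many animals gave each RNA. The spread within a group therefore holds the difference in age as well as experimental error, p-values measure only the spread between these samples, and an exact permutation test of 3 against 3 cannot go below 0.1.

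A coiled coil is a pair or bundle of helices wound around each other, and proteins that carry one often act as rods, rulers or scaffolds. The Ccdc name says nothing of function, and the family spans dynein arm assembly factors and nexin links of the sperm tail, centriole proteins, endosome and Golgi adaptors, mitochondrial calcium channel subunits, splicing factors and secreted proteins. During the first wave of spermatogenesis the germ cells of a young mouse pass nearly in step from spermatogonia to meiotic spermatocytes and then to haploid spermatids, which build an acrosome and a tail, so the cell types of the testis change from week to week. In a bulk sample, fewer cells of a type and less RNA per cell cannot be told apart.

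The libraries held 3512699 to 5450015 reads in the table, and a level is given in RPM, reads per 1000000 of these. Ccdc genes took 3112, 3240, 7630, 7378, 6520 and 5531 RPM at 1 to 6 weeks. Cell type markers moved with age: the summed last-exon level of 8 Sertoli cell markers fell from between 2546 and 6057 RPM in the 1–3 week samples to between 413 and 893 RPM in the 4–6 week samples, and that of 9 spermatid markers went from between 81.4 and 678 RPM to between 108235 and 240125 RPM. Of those 9, Gapdhs and Oaz3 were listed at 0 throughout, and Akap4 had at most 21 reads in a library. Tnp1 and Prm1, with 738205 and 520357 reads at 6 weeks, made up most of the sum in the older libraries. The 1 week library held 1174 reads of Tnp1 and 796 of Prm1, more than the 162 and 108 of the 2 week library, although both encode basic proteins of spermatid chromatin, and the part of these reads in the low values at 1 week was not tested. In RPM the median gene was 0.73 lower on the log2 scale at 4 weeks than at 3 weeks, and the cause of this shift was not tested. The edgeR test used TMM scaling, under which the median of all genes tested was -0.07. With library sizes set to the stated totals of the method's poly(A) site supporting (PASS) reads instead, that median was -1.39. Directions in the edgeR tests of level are thus relative to the median gene. Weeks of highest level and ratios between weeks are in RPM without this scaling. They also hold the shift of the median gene, which was -0.45 from 2 to 3 weeks.

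The results on 3' ends turn on the sequences at the pAs. A pA is set by signals both upstream and downstream, among them the upstream polyadenylation signal (PAS). Only its hexamers AATAAA and ATTAAA, written as DNA, were searched here. Close variants were not, so a pA with neither hexamer may still hold a signal. In the 40 nt before the pA, AATAAA was found for 60.4% of the 48 Ccdc genes with a single last-exon pA. It was found for 58.3% of the distal pAs (Dis-pA) and 44.0% of the proximal pAs (Prx-pA) of the 84 Ccdc genes with more than 1, Prx-pA and Dis-pA being the pair with the most reads. Of intronic pAs of Ccdc genes, 40% had AATAAA. Over all genes of the table the same shares were 68.6%, 58.3%, 34.2% and 43.4%. A match is a description of these letters only.

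The pairs below belong to 4 genes in which the Prx-pA, near the stop codon, gained in share of reads with age. Each line gives the last 30 nt of the transcript up to the pA in mm9, 5′ to 3′. AATAAA or ATTAAA is in capitals where this stretch holds it.
Ccdc6 Prx-pA (chr10:69652196-69652225, + strand): cgaggttgcgggtccgcaacactaaccaga
Ccdc6 Dis-pA (chr10:69655919-69655948, + strand): acctaAATAAAgataattttttaaaatgta
Ccdc50 Prx-pA (chr16:27446428-27446457, + strand): tactgaaagatacaacatgcattccacgtt
Ccdc50 Dis-pA (chr16:27452275-27452304, + strand): cttAATAAAgtcatccatttattaagtcaa
Ccdc46 Prx-pA (chr11:108721636-108721665, + strand): aattaatatcataaaaacatgcatcatcca
Ccdc46 Dis-pA (chr11:108721900-108721929, + strand): ttcagatATTAAAatgtcatttttatacta
Ccdc45 Prx-pA (chr11:106680077-106680106, + strand): acctgagccagtaaacagtctaaaccagaa
Ccdc45 Dis-pA (chr11:106680146-106680175, + strand): ttttaAATAAAaactttctcttaaagctta
In all 4 pairs the Dis-pA carried AATAAA or ATTAAA, and the Prx-pA carried neither in its 40 nt window. These 4 do not stand for all such genes. Of the 14 Ccdc genes that passed the test for this shift, 6 had AATAAA at the Prx-pA, Ccdc93 among them.

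The intronic pAs of 3 genes are shown because they had hardly any reads at 1 and 2 weeks and many at 6 weeks, and in Ccdc28a they came to outnumber those of the last-exon pA, given beside it.
Ccdc28a intronic pA (chr10:17937962-17937991, - strand): aaAATAAAtatctaaaaccttcttaaggga
Ccdc28a last-exon pA (chr10:17933482-17933511, - strand): ttttAATAAAgtgattgttttaaatcgtca
Ccdc38 intronic pA (chr10:93018328-93018357, + strand): ggtATTAAAagcaatttctttctcctgtca
Ccdc46 intronic pA (chr11:108619323-108619352, + strand): catgccagcataaaaagtcatttttggcaa
The Ccdc28a pAs both had AATAAA, the Ccdc38 intronic pA had ATTAAA, and the Ccdc46 intronic pA had neither.

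The level of a gene was taken as the reads at its last-exon pAs. For the 132 Ccdc genes with such reads the total over all libraries ran from 2 to 8387, with a median of 394. Ccdc genes were late to rise compared with the table as a whole. Of the 124 Ccdc genes with at least 20 last-exon reads, the week of highest RPM was week 3 for 45 (36.3%) and week 1 for 21 (16.9%). Over all 13553 genes with that many reads, week 3 was highest for 17.9% and week 1 for 36.2%. The earliest week at 50% of a gene's own highest level was week 1 for 42.7% of these Ccdc genes against 68.7% of all genes, and week 3 for 35.5% against 12.9%. Weeks 4, 5 and 6 were highest for 17, 12 and 13 Ccdc genes, and week 2 for 16. Each week is 1 library, so these shares have no replicate check.

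**Figure D1:**
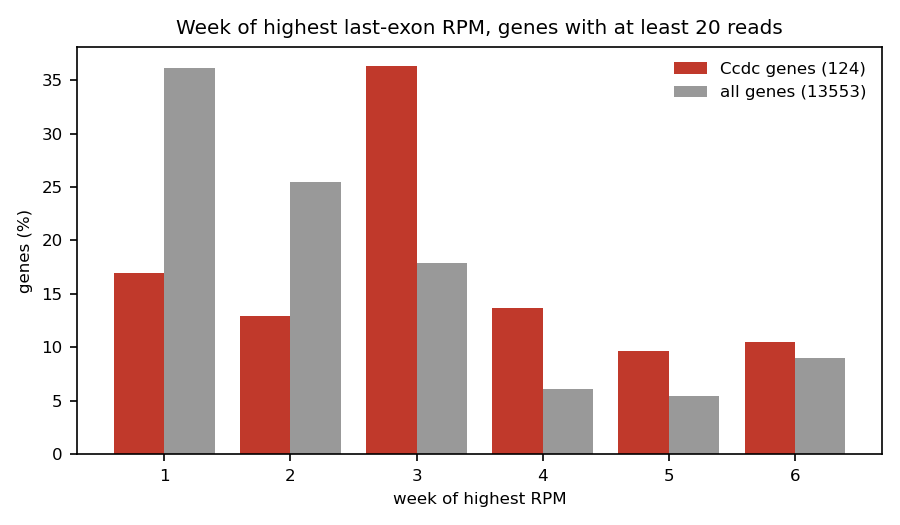
Bars give the percent of genes (y axis) whose last-exon RPM was highest in each week (x axis), for 124 Ccdc genes (red) and all 13553 genes with at least 20 reads (grey). Week 3 holds 36.3% of the Ccdc genes and 17.9% of all genes.

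The step from 2 to 3 weeks was the largest in number of genes. Of 105 Ccdc genes with at least 20 reads in these 2 libraries together, 40 were at least 4-fold higher in RPM at 3 weeks (38.1%) and 3 at least 4-fold lower. Over all 11378 genes the background was 10.4% higher and 4.03% lower, and the median Ccdc gene differed by 0.56 on the log2 scale against -0.45 for all genes. From 3 to 4 weeks, 9 of 108 Ccdc genes were at least 4-fold higher, with a background of 6.15%, and 1 lower, with a background of 4.65%. Between 1 and 2 weeks 3 of 81 were that much higher (background 2.21%) and none lower (background 0.636%). From 4 to 5 weeks none of 105 moved that far in either direction (background 0.0785% higher and 0.422% lower), and from 5 to 6 weeks only Ccdc7, with 3 and 18 reads, was higher (background 0.0401%) and none lower (background 0.281%). These ratios compare single libraries, with 0.5 read added to each count.

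The axoneme is the microtubule core of the sperm tail, and 16 of the 40 Ccdc genes past 4-fold at this step were on its list. The role list of axoneme and sperm tail genes had 23 symbols, of which 19 were in the table, and these 16 were among 17 with enough reads in the 2 and 3 week libraries. The exception was Ccdc114, with 93 and 226 reads. Among 31 axoneme genes outside the family with enough reads, 27 were at least 4-fold higher at 3 weeks. Ccdc108 (Cfap65), a protein of the cilium and sperm tail, had 7, 111, 1780, 1227, 899 and 616 reads at 1 to 6 weeks. In RPM it was 17.4-fold higher at 2 than at 1 week (95% counting interval 8.16 to 44.2) and a further 15.6-fold higher (12.9 to 19.1) at 3 weeks, so its reads came earlier than those of most of the list. The counting intervals here and below cover counting error only, since PCR copies are not independent molecules.

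Ccdc113, a protein of cilia and the sperm tail, had 11, 23, 1031, 1070, 913 and 876 reads. Ccdc164 (Drc1) and Ccdc65 are both parts of the nexin–dynein regulatory complex, the link that holds neighbouring microtubule doublets together. Ccdc164 had 24, 29, 1009, 862, 782 and 619 reads, and Ccdc65 had 17, 16, 519, 777, 779 and 535. From 2 to 3 weeks the RPM of Ccdc113 was 43.6-fold higher (28.9 to 69.1), that of Ccdc164 33.8-fold (23.4 to 50.8) and that of Ccdc65 31.5-fold (19.2 to 55.6). In all 3 genes the 3 week library stood with the older libraries and apart from the 1 and 2 week libraries. Ccdc39 and Ccdc40, which together form the molecular ruler along each doublet, moved alike in time: 5, 10, 263, 204, 166 and 141 reads for Ccdc39, and 11, 4, 152, 87, 90 and 70 for Ccdc40. Ccdc38 had 0 and 2 reads at 1 and 2 weeks and 714, 633, 644 and 574 reads afterwards, and its values and those of Ccdc39 and Ccdc40 were singled out after they were seen.

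**Figure D2:**
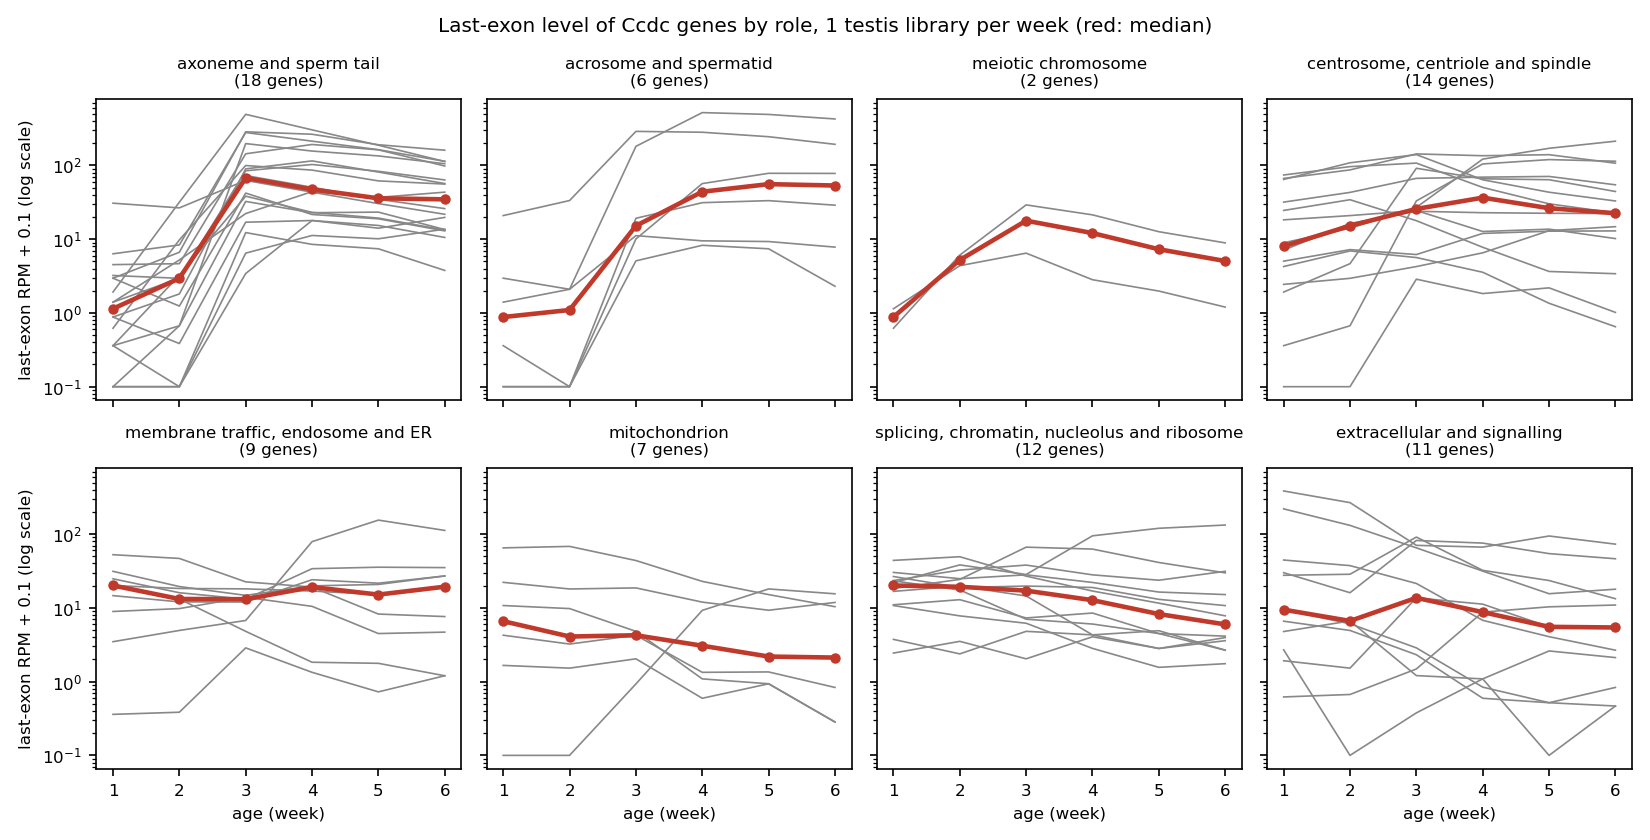
Each grey line is a Ccdc gene with at least 20 last-exon reads, by its role list, with age in weeks on the x axis and last-exon RPM plus 0.1 on a log y axis, and the red line is the median of the list in each library. The week of reaching 50% of the highest level was week 3 for 16 of the 18 axoneme and sperm tail genes and 4 of the 6 acrosome and spermatid genes, and week 4 for the others.

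This step falls inside the younger group, and most axoneme genes did not pass the test between age groups. The part of this step in that outcome was not tested. Of the 18 tested, 2 were higher in the 4–6 week samples and none lower, beside 17.7% and 22.5% of all genes tested. Their median log2 change was 2.00 against -0.07 for all genes tested. Those that passed were Ccdc103, a dynein arm assembly factor with 5, 18, 80, 178, 176 and 236 reads, and Ccdc63, a factor for docking outer dynein arms in sperm with 0, 0, 12, 72, 67 and 107 reads. For Ccdc103 the mean was 9.52 ± 11.1 RPM in the younger and 41.4 ± 4.01 RPM in the older group (SD, n = 3), a log2 change of 3.28 ± 1.00 (SE; edgeR adjusted p = 0.0415). For Ccdc63 the log2 change was 5.12 ± 1.22 (edgeR adjusted p = 0.0235). Another last-exon pA of Ccdc103 is shared with Fam187a and was left out.

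Over all Ccdc genes, 109 had enough last-exon reads for that test. In the 4–6 week samples 27 were higher, where 17.7% of the 11269 genes tested were, and 6 were lower, where 22.5% were. These are 24.8% and 5.50% of the Ccdc genes tested, whose median log2 change was 1.57 against -0.07 for all genes. Not tested were 33 genes, of which 15 had at least 20 reads in total. With library sizes from the stated PASS totals, 15 Ccdc genes were higher and 24 lower, beside 9.59% and 55.0% of all genes. The shares of 17.7% and 22.5%, or 9.59% and 55.0% with the stated totals, are the background for every role list. They hold for the genes on no list as well, and several lists lie near or below them. Leaving out the 3 week library raised the count of higher Ccdc genes to 77 and of lower ones to 11, and leaving out the 2, 4, 5 or 6 week library cut the higher ones to 10, 15, 4 or 8. The 6 lower ones became 2 without the 1 or 4 week library and 0 without the 2, 5 or 6 week library. The share of all genes called is not given for these fits. Their counts show only how far the calls depend on single libraries. Only Ccdc91, Ccdc159, Ccdc85a and Ccdc101 passed with every library left out in turn.

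Among acrosome and spermatid genes, 1 of the 6 tested was higher and none lower, with a median log2 change of 3.10. Ccdc89 was the most abundant of them, with 11, 7, 655, 2103, 2352 and 2325 reads, and Ccdc136, which acts in acrosome formation in the mouse, had 80, 117, 1045, 1139, 1173 and 1053. In RPM they were 91.0-fold (43.9 to 227) and 8.68-fold (7.17 to 10.6) higher at 3 than at 2 weeks, and neither passed the test between groups. Ccdc70 came later, with 0, 0, 36, 229, 374 and 424 reads, a mean of 3.32 ± 5.75 against 70.8 ± 12.3 RPM and a log2 change of 5.56 ± 1.71 (edgeR adjusted p = 0.0424). Ccdc105 had 0, 0, 69, 126, 159 and 157 reads and did not pass.

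Of the 3 genes of the meiotic chromosome list, which tether telomeres to the nuclear envelope or set up recombination, 2 were tested and none passed. Ccdc79 (Terb1), a telomere protein of meiosis, had 2, 21, 105, 86, 60 and 48 last-exon reads and was 11.5-fold higher in RPM at 2 than at 1 week (2.81 to 101). Only Ccdc108 and the sperm tail gene Ccdc96 also passed 4-fold between these weeks. Ccdc155 (Kash5), which links telomeres to dynein, had 4, 15, 23, 11, 9 and 6 reads, and Ccdc36 (Iho1) had no last-exon read.

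The 10 largest rises among the genes that passed came mainly at 4 weeks. Ccdc54, of no role known here, had 1, 0, 17, 212, 371 and 646 reads, a mean of 1.66 ± 2.65 RPM in the younger and 82.8 ± 33.4 RPM in the older group, and a log2 change of 6.86 ± 1.48 (edgeR adjusted p = 0.02). Ccdc109a (Mcu), the pore of the mitochondrial calcium uniporter, had 0, 0, 3, 37, 86 and 84 reads. With 3 reads in the younger group its pooled RPM ratio was 53.0, with a counting interval of 17.9 to 259, and the edgeR adjusted p was 0.00880. Both genes were near absent until 3 weeks, and their 4 to 6 week values did not overlap the younger ones.

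Ccdc91, an adaptor at the trans-Golgi network, had 13, 17, 24, 319, 741 and 611 reads, a mean of 4.95 ± 1.64 against 115 ± 38.0 RPM and a log2 change of 5.82 ± 0.60 (edgeR adjusted p = 0.00641). Ccdc159 had 11, 7, 6, 108, 195 and 145 reads, with a log2 change of 5.13 ± 0.42 (edgeR adjusted p = 0.00641). Ccdc85a had 2, 2, 5, 35, 49 and 59 reads, with a log2 change of 4.81 ± 0.55 (edgeR adjusted p = 0.00660). These 3 genes had like low levels in all 3 younger libraries, unlike the axoneme genes. Ccdc27 had 0, 0, 9, 56, 57 and 65 reads and a log2 change of 5.06, and Ccdc33 had 0, 1, 21, 86, 111 and 125 reads and one of 4.63. Ccdc63, Ccdc70 and Ccdc46, described with the genes of their roles, complete the 10.

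**Figure D3:**
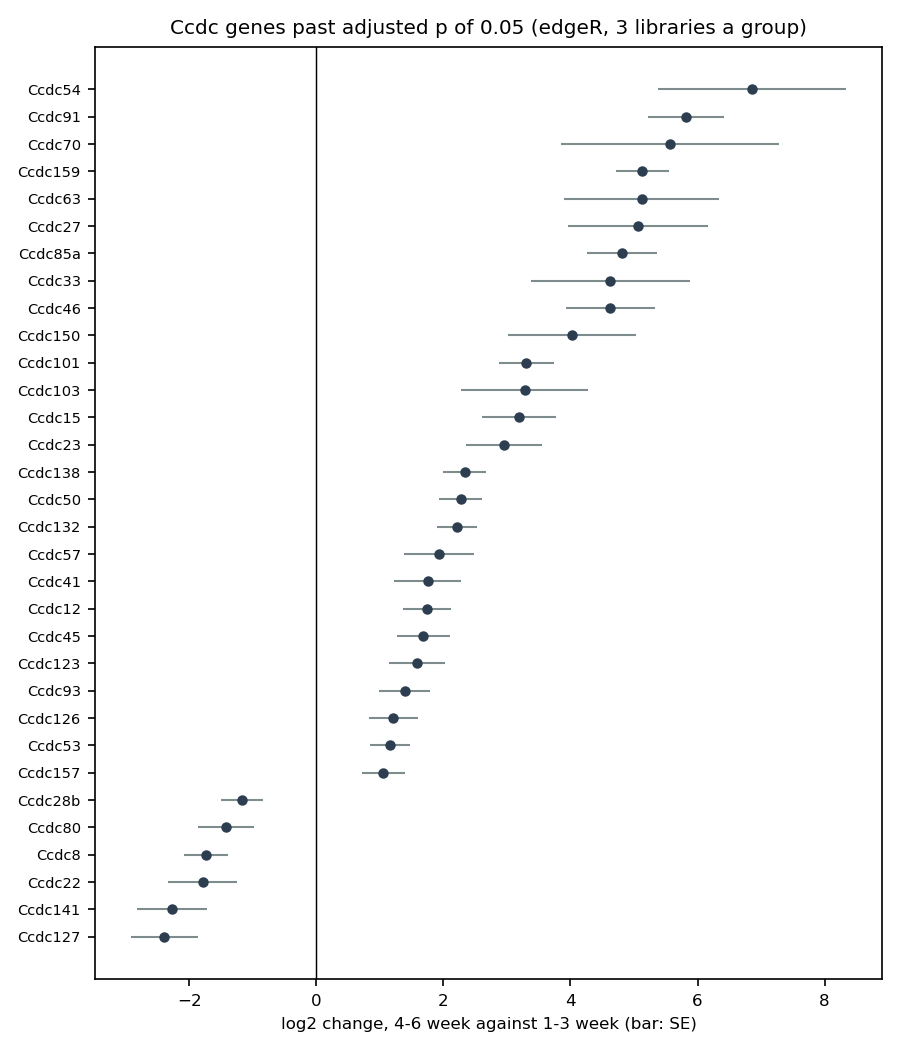
Points give the log2 change of last-exon reads between 4–6 week and 1–3 week libraries (x axis, TMM scaling, edgeR) for the Ccdc genes that passed an adjusted p of 0.05, with bars of 1 SE, 3 libraries a group. Ccdc109a is left out because it had 3 reads in the younger group, and the values run from 6.86 for Ccdc54 to -2.39 for Ccdc127.

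Of 13 tested centrosome, centriole and spindle genes, 6 were higher and 1 lower, with a median log2 change of 1.68. With the stated PASS totals 3 were higher and 4 lower. Ccdc46 (Cep112), a centrosomal protein, had 34, 49, 97, 492, 817 and 1161 reads, a mean of 16.5 ± 9.28 against 168 ± 45.7 RPM and a log2 change of 4.63 ± 0.70 (edgeR adjusted p = 0.00973). Ccdc123 (Cep89), a protein of the distal appendages that dock a centriole at the membrane, had 256, 305, 517, 547, 669 and 584 reads. Its log2 change was 1.59 ± 0.45 (edgeR adjusted p = 0.0334), although its RPM means of 98.8 ± 39.7 and 127 ± 17.6 lay within the spread of the younger group. Ccdc67 (Deup1), known from multiciliated cells as the scaffold of deuterosomes, had 1, 2, 119, 423, 574 and 621 reads and did not pass. Ccdc21 (Cep85), which peaked at 3 weeks with 506 reads, did not pass either. The member that was lower was Ccdc28b, a modifier of Bardet–Biedl syndrome in humans, with 94, 120, 64, 31, 17 and 18 reads and a log2 change of -1.17 ± 0.33 (edgeR adjusted p = 0.0336).

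Of the 8 tested genes of membrane traffic, endosome and ER, 5 were higher and 1 lower, beside 17.7% and 22.5% of all genes. Their median log2 change was 1.28, and with the stated PASS totals 1 was higher and 2 lower. Besides Ccdc91 the higher genes were Ccdc50, a ubiquitin-binding protein, and Ccdc132 (Vps50), a subunit of an endosomal recycling complex. Also higher were Ccdc93, of the commander complex, and Ccdc53 (Washc3), of the WASH complex that nucleates actin on endosomes. Ccdc50 had 95, 56, 47, 137, 170 and 191 reads, with a log2 change of 2.27 ± 0.34 (edgeR adjusted p = 0.00973). Ccdc93 and Ccdc53 had about the same RPM in both groups, 21.7 ± 8.51 against 22.5 ± 3.92 and 18.7 ± 1.11 against 17.0 ± 2.12, and with the stated totals their changes were -0.02 and -0.20. Ccdc22, the commander partner of Ccdc93, is X-linked and was lower, with 80, 46, 17, 7, 8 and 6 reads and a log2 change of -1.79 ± 0.54 (edgeR adjusted p = 0.0404). Reads of Ccdc22 may be shared with an overlapping gene on the same strand, Ppp1r3f. Ccdc47, a chaperone of membrane proteins in the ER, had 202, 164, 81, 77, 39 and 41 reads and did not pass, and the annotation places Strada on its strand there.

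Of 6 tested genes of the mitochondrial list, Ccdc109a was higher and Ccdc127 lower, with a median log2 change of -0.10, and with the stated PASS totals 1 was higher and 3 lower. Ccdc127 had 41, 34, 17, 4, 4 and 1 last-exon reads and a log2 change of -2.39 ± 0.52 (edgeR adjusted p = 0.0204), but over all its sense reads the change was -0.52 and did not pass (edgeR adjusted p = 0.152). Ccdc90b had 250, 239, 158, 92, 72 and 56 reads, and Ccdc56 (Coa3), an assembly factor of cytochrome oxidase, 85, 63, 67, 48, 44 and 64, and neither passed. Ccdc109b (Mcub), the subunit that dampens the uniporter, had 0 to 4 reads a library and was not tested, and neither was Ccdc90a (Mcur1), its regulator, with 1 to 7.

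Of 12 tested genes of splicing, chromatin, nucleolus and ribosome, 2 were higher and none lower, with a median of 0.61, while with the stated PASS totals 1 was higher and 4 were lower. Ccdc101 (Sgf29), the subunit of the SAGA complex that reads histone H3 methylated on a lysine, had 84, 134, 102, 383, 574 and 723 reads, a mean of 29.4 ± 8.22 against 116 ± 19.3 RPM and a log2 change of 3.31 ± 0.43 (edgeR adjusted p = 0.00734). The other was Ccdc12, with 9, 12, 7, 16, 13 and 21 reads. Ccdc130, a relative of the splicing factor Yju2, had 85 reads at 2 weeks and 240 at 3 weeks, and Ccdc124, a ribosome-associated protein, kept between 90 and 170 reads. The nucleolar protein Ccdc59 had 169, 173, 97, 68, 55 and 42 reads. None of these 3 passed the test.

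Extracellular and signalling genes held 3 of the 6 genes that were lower. Ccdc80, a matrix protein, had 846, 461, 235, 127, 74 and 97 reads, a mean of 139 ± 77.7 against 21.6 ± 8.61 RPM and a log2 change of -1.42 ± 0.44 (edgeR adjusted p = 0.0430). Ccdc8, a member of the 3M complex in humans, had 171, 131, 77, 27, 19 and 14 reads and a log2 change of -1.73 ± 0.34 (edgeR adjusted p = 0.0174). Ccdc141 had 36, 21, 10, 3, 2 and 2 reads and a log2 change of -2.27 ± 0.55 (edgeR adjusted p = 0.0240). All 3 were highest at 1 week, as were most Sertoli cell markers, and the part of changing cell numbers was not tested. Of 8 tested, 1 was higher, Ccdc85a, and with the stated PASS totals 1 was higher and 4 were lower.

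Ccdc6, known in humans as a partner of RET in thyroid cancer fusions, was the most abundant gene of the family at 1 week, with 1479, 938, 254, 269, 451 and 398 reads, and did not pass. The actin-binding protein Ccdc88a had 115, 56, 296, 305, 260 and 252 reads, and Ccdc134, a secreted protein, 106, 100, 329, 130, 112 and 72. Neither of these passed.

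On no role list were 53 Ccdc genes, among them 36 tested, of which 9 were higher and none lower, while with the stated PASS totals 6 were higher and 7 lower. They include the 2 with the most reads, named here after their values were seen: Ccdc30 with 49, 49, 1839, 1969, 2754 and 1727 reads, and Ccdc92 with 63, 176, 1941, 2097, 1925 and 1898. Both follow the time course of the axoneme genes, and neither passed the test between groups. Of the 3 X-linked Ccdc genes only Ccdc22 passed, 1 did not and 1 was not tested. The other genes that were higher, with their log2 changes, were Ccdc150 at 4.03, Ccdc15 at 3.19, Ccdc23 (Svbp) at 2.95 and Ccdc138 at 2.34. Then came Ccdc132 at 2.22, Ccdc57 at 1.94, Ccdc41 (Cep83) at 1.75, Ccdc12 at 1.74 and Ccdc45 (Cep95) at 1.68. Last were Ccdc126 at 1.21 and Ccdc157 at 1.05, whose mean RPM was not higher in the older group. It went from 8.91 to 8.42 for Ccdc126 and from 7.79 to 7.04 for Ccdc157.

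3'UTR-APA was tested as the change in the ratio of Dis-pA to Prx-pA reads, in genes with at least 20 reads of the pair in every library. Of 35 Ccdc genes tested, 14 had a lower ratio in the 4–6 week samples, here called shortened, and none a higher one. Over all 4271 genes tested, 34.5% were shortened and 1.29% lengthened. The median log2 change was -1.56 for the Ccdc genes and -1.11 for all genes. At an unadjusted p under 0.05, 16 Ccdc genes were shortened and 1 lengthened, and DESeq2 also called 14 and 0. No share of all genes is given for these counts. In 20 of the 35 every older library had a lower Dis-pA share than every younger one, as had 45.8% of all genes tested. Leaving out the 5 or the 6 week library cut the shortened genes to 9, with no share of all genes given for these fits.

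Ccdc6 had the lowest adjusted p of the 14. Its Dis-pA held 99.8%, 100%, 100%, 56.9%, 41.7% and 48.0% of the reads of the pair at 1 to 6 weeks, and its Prx-pA had 3, 0, 0, 97, 225 and 178 reads. The mean Dis-pA share was 99.9% ± 0.117 in the younger and 48.9% ± 7.63 in the older group (SD, n = 3; edgeR adjusted p = 4.4e-05). The pAs lay 202 and 3925 nt past the stop codon of the gencode annotation, so the transcripts cut at the Prx-pA lacked 3723 nt. This Prx-pA is printed above and has neither hexamer. No fold is given, since the younger libraries held 3 reads of this pA.

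Within its pair, the switch of Ccdc50 was nearly complete. The gene also had reads at other last-exon pAs. In the younger libraries the pair held 121 of its 198 sense reads, and in the older ones 160 of 498, so no switch of the whole gene is shown. Its Dis-pA share was 95.5%, 100%, 85.0%, 19.1%, 5.08% and 14.8%, with means of 93.5% ± 7.70 and 13.0% ± 7.20, and the log2 change of the ratio was -6.92 ± 0.94 (edgeR adjusted p = 0.000423). Its pAs lay 107 and 5954 nt past the stop codon, the longest stretch among the shortened genes. In Ccdc93 the Dis-pA share was 93.2%, 84.6%, 70.8%, 17.6%, 13.4% and 0.952%, with a log2 change of -5.74 ± 0.93 (edgeR adjusted p = 0.00107). Its pAs, both with AATAAA, lay 353 and 5220 nt past the stop codon. So Ccdc93 passed from a long to a short 3'UTR while its level hardly differed in RPM, though under TMM scaling it was called higher.

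Ccdc46 changed earlier. Its Dis-pA share was 100%, 91.8%, 46.4%, 7.52%, 3.43% and 3.96%, and the 3 week library lay between the others. While its Prx-pA went from 0, 4 and 52 to 455, 789 and 1115 reads, its Dis-pA stayed between 28 and 46 reads in every library. The log2 change of the ratio was -6.36 ± 1.09 (edgeR adjusted p = 0.00143), and the pAs lay 159 and 423 nt past the stop codon. Ccdc132 was alike, with a share of 100%, 100%, 70.3%, 28.9%, 13.7% and 19.8% and a log2 change of -5.38 ± 1.10 (edgeR adjusted p = 0.00382).

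Ccdc25, known in human cells as a membrane sensor of extracellular DNA, had a Dis-pA share of 97.2%, 95.4%, 93.1%, 41.0%, 27.7% and 9.09% and a log2 change of -6.03 ± 0.76 (edgeR adjusted p = 0.000266). Ccdc45 had shares of 96.7%, 98.0% and 96.3% in the younger and 62.5%, 61.0% and 60.2% in the older libraries, which lay close together within each group, and a log2 change of -4.31 ± 0.46 (edgeR adjusted p = 0.000147). Its pAs are only 69 nt apart, 70 and 139 nt past the stop codon. A large shift thus came with long and short stretches between the pAs.

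In 3 of the shortened genes the shift was small in share. Ccdc123 had 9, 7 and 4 Dis-pA reads in the younger libraries and 0 of 1800 reads of the pair in the older ones, which allows a share of up to 0.167% (edgeR adjusted p = 0.00401). Ccdc101 had a mean Dis-pA share of 8.35% ± 1.49 and 1.81% ± 0.208, with a log2 change of -2.28 ± 0.46 (edgeR adjusted p = 0.00349), and Ccdc97 of 99.8% ± 0.135 and 97.3% ± 2.44, with one of -3.23 ± 0.90 (edgeR adjusted p = 0.0184). Ccdc123 and Ccdc101 thus used the Prx-pA and Ccdc97 the Dis-pA at every age.

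Ccdc43, Ccdc41, Ccdc88a and Ccdc157 were the other shortened genes. Mean Dis-pA shares were 95.5% ± 6.92 and 65.7% ± 6.2 for Ccdc43, 52.6% ± 4.02 and 24% ± 5.00 for Ccdc41, and 88.7% ± 8.69 and 57.4% ± 13.8 for Ccdc157. For Ccdc88a the share was 59.5%, 75.0%, 6.12%, 4.94%, 5.06% and 5.11%, so its shift within the pair lay between 2 and 3 weeks. At 1 week 25 Dis-pA and 17 Prx-pA reads stood beside 115 last-exon reads, and at 2 weeks 15 and 5 beside 56. These 4 genes and Ccdc97 did not pass with some libraries left out, while the other 9 passed with every library left out in turn. By the rule for named genes the 10 with the largest change were named, and the remaining 4 were added so that all that passed are given.

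**Figure D4:**
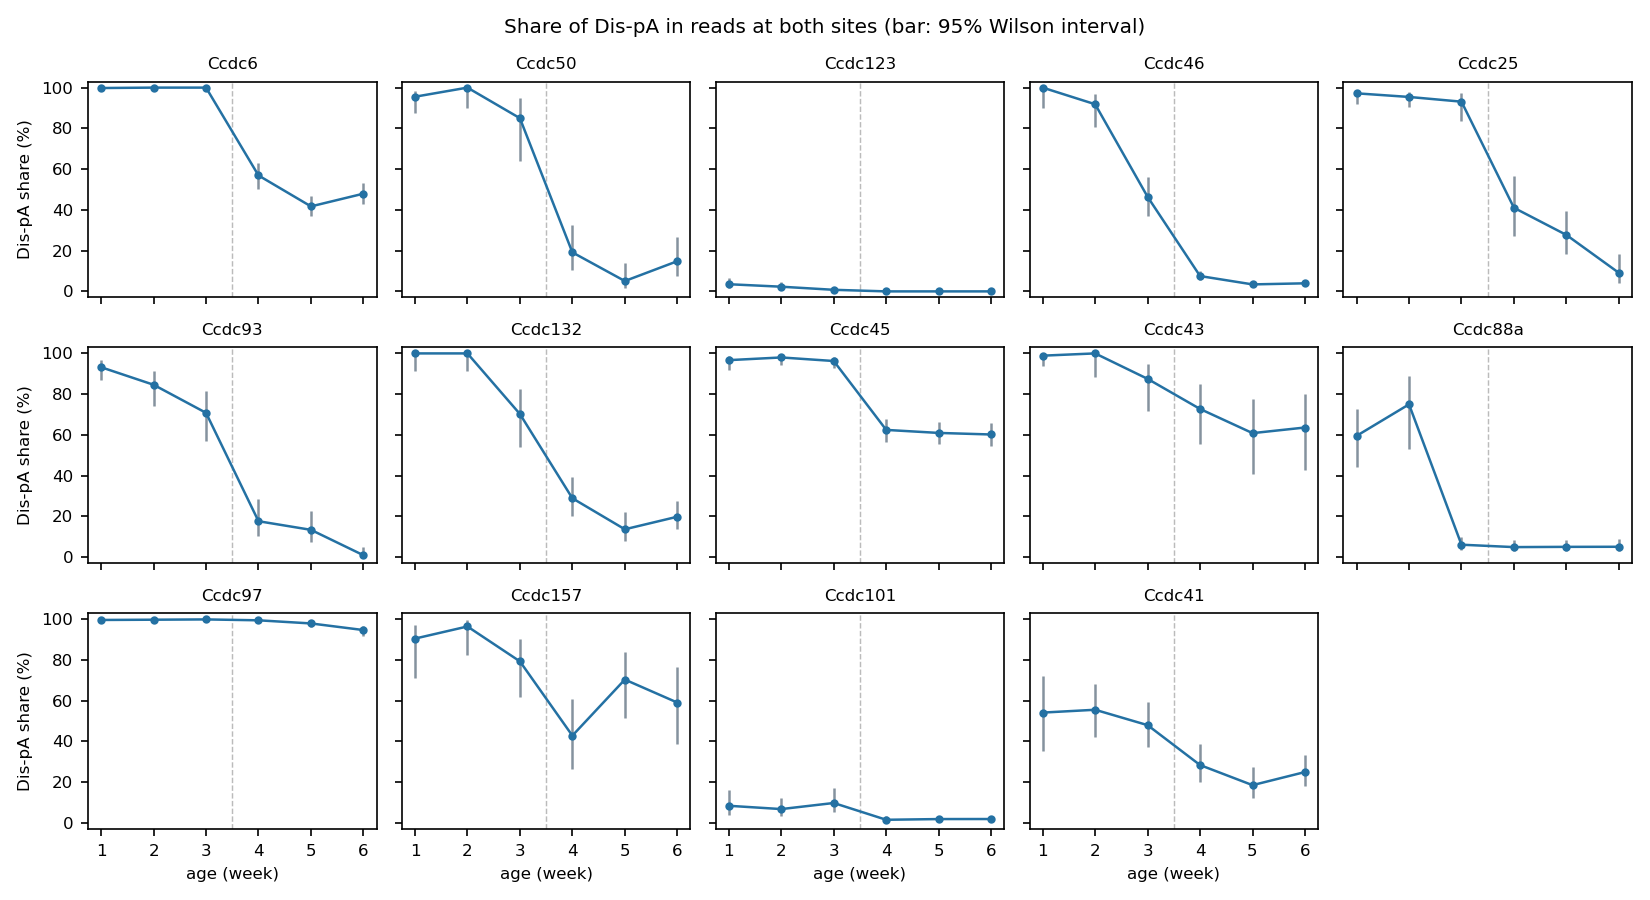
Panels show the 14 Ccdc genes with a lower Dis-pA to Prx-pA ratio, with age in weeks on the x axis and the Dis-pA share in percent of the reads of the pair on the y axis, 1 library per point, bars of 95% Wilson intervals and a dashed line between the age groups. Ccdc6, Ccdc50, Ccdc25, Ccdc93 and Ccdc45 drop between 3 and 4 weeks, and Ccdc88a drops between 2 and 3 weeks.

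The pAs of the shortened genes differed in their hexamers. Of the 14 Prx-pAs, 6 had AATAAA and 8 neither hexamer, and of the 14 Dis-pAs, 9 had AATAAA, 4 ATTAAA alone and 1 neither. Among the 21 Ccdc genes that were tested and not shortened, 8 Prx-pAs and 7 Dis-pAs had neither. The stretch between the pAs had a median of 1226 nt in the shortened genes and 192 nt in the other 21. These are descriptions of a few genes, with no test. Among the 21, Ccdc117 kept its Dis-pA at 95.1% to 97.6% and Ccdc71 kept it at 4.50% to 7.71%, and Ccdc136, with the highest counts of the acrosome list after Ccdc89, had a Dis-pA share of 0% to 1.52%. These 3 were chosen after their values were seen.

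Intronic pAs took a larger share of reads in Ccdc genes than in the table as a whole, 8.60% of sense reads against 2.71%. Without Ccdc9, the gene with the most intronic reads, the share was 5.89%, and without Ccdc9 and Ccdc127 it was 5.39%. By library it was 18.4%, 16.7%, 7.36%, 6.62%, 6.26% and 7.45% with Ccdc9 and 7.34%, 8.22%, 4.48%, 5.25%, 5.41% and 6.99% without it. The intronic pA of Ccdc9 had 1329, 991, 803, 421, 271 and 145 reads beside 91 at its last exon in all. It is intronic by the RefSeq gene model of the table, but lay within 24 nt of a transcript end of the gencode annotation, 179 nt past a stop codon, so that annotation places it in a 3'UTR. In all, 25 of the 270 intronic pAs of Ccdc genes lay within 24 nt of a gencode transcript end on their strand. Together they had 54.6% of the family's intronic reads. Whether each of them lay in a 3'UTR was not tallied.

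The members with the largest intronic share in the younger group, of those with at least 100 sense reads in it, were Ccdc9 at 98.5%, Ccdc127 at 84.2%, Ccdc79 at 74.6%, Ccdc53 at 46.1% and Ccdc57 at 45.3%. In the older group they were Ccdc147 and Ccdc88c at 100%, Ccdc127 at 96.0%, Ccdc9 at 94.9% and Ccdc7 at 78.5%. The main intronic pAs of Ccdc127 and Ccdc53 also lay at gencode transcript ends. That of Ccdc79 did not, and its 35, 140, 174, 104, 76 and 76 reads peaked at 3 weeks, as the last exon did.

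Ccdc147 (Cfap58) and Ccdc88c had no last-exon read. Ccdc147, a sperm tail protein, had 0, 0, 6, 23, 28 and 38 reads at its main intronic pA, and Ccdc88c, a Wnt signalling relative of Ccdc88a, had 1, 0, 1, 22, 40 and 38. In both the reads thus appeared from 3 or 4 weeks on, at a pA that no gencode transcript end marks. Ccdc7 had 0, 0, 23, 22, 34 and 37 reads at its main intronic pA.

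CDS-APA was tested as the ratio of reads at intronic and upstream exon pAs to reads at the last exon. Of 29 Ccdc genes tested, 4 had a higher ratio in the 4–6 week samples, with a background of 20.8% of 2433 genes, and 4 a lower one, with a background of 4.07%. The median log2 change was 0.38 in Ccdc genes and 0.76 in all genes. Leaving out the 3 week library gave 6 higher and 9 lower. Leaving out 1 week gave 1 lower, 2 weeks 2 higher and 0 lower, 4 weeks 2 lower, 5 weeks 1 lower and 6 weeks 0 lower. No share of all genes is given for these fits either.

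Ccdc28a showed the largest change in share. Its intronic pA, printed above with AATAAA, had 1, 0, 4, 57, 97 and 130 reads, while its last exon had 34, 42, 35, 36, 16 and 28. Upstream pAs held 15.0% ± 2.44 of its reads in the younger and 77.0% ± 12.7 in the older libraries, a log2 change of 4.32 ± 0.72 (edgeR adjusted p = 0.00125), and it passed with every library left out in turn. The groups did not overlap, and the pA lay within 24 nt of an annotated exon of the gene but at no annotated transcript end.

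In Ccdc6 the upstream reads were 0 of 2671 in the younger libraries, which allows a share of up to 0.112%, and 18, 25 and 37 reads in the older ones, 6.68% ± 1.66 (edgeR adjusted p = 0.000495). Ccdc6 thus gained a Prx-pA and an intronic pA in the same weeks, and it too passed with every library left out. In Ccdc25 they were 0 of 306, which allows up to 0.980%, and 3, 5 and 4 reads (edgeR adjusted p = 0.00978). Ccdc127 went from 84.4% ± 3.85 to 95.9% ± 2.48, with a log2 change of 2.11 ± 0.73 (edgeR adjusted p = 0.0486), at pAs that lie past the gencode stop codon.

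The 4 genes with a lower ratio had more last-exon reads from 3 weeks on. In Ccdc136 the upstream share was 27.3%, 27.3%, 2.25%, 1.04%, 1.01% and 0.754%, in Ccdc104 (Cfap36) 75.6%, 74.0%, 16.8%, 10.4%, 8.99% and 7.67%, and in Ccdc39 89.1%, 68.8%, 19.6%, 18.4%, 13.5% and 9.62%. In Ccdc88a it was 40.4%, 53.3%, 11.9%, 5.86%, 9.09% and 4.91%. In all 4 the 3 week library stood with the older ones. The log2 changes were -4.11 ± 1.04, -3.60 ± 0.97, -3.12 ± 1.05 and -2.80 ± 0.81 in that order, with edgeR adjusted p of 0.0117, 0.0159, 0.0437 and 0.0228. In Ccdc39 the main intronic pA had 29, 13, 40, 25, 20 and 8 reads, and the last exon had 10 at 2 weeks and 263 at 3 weeks.

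**Figure D5:**
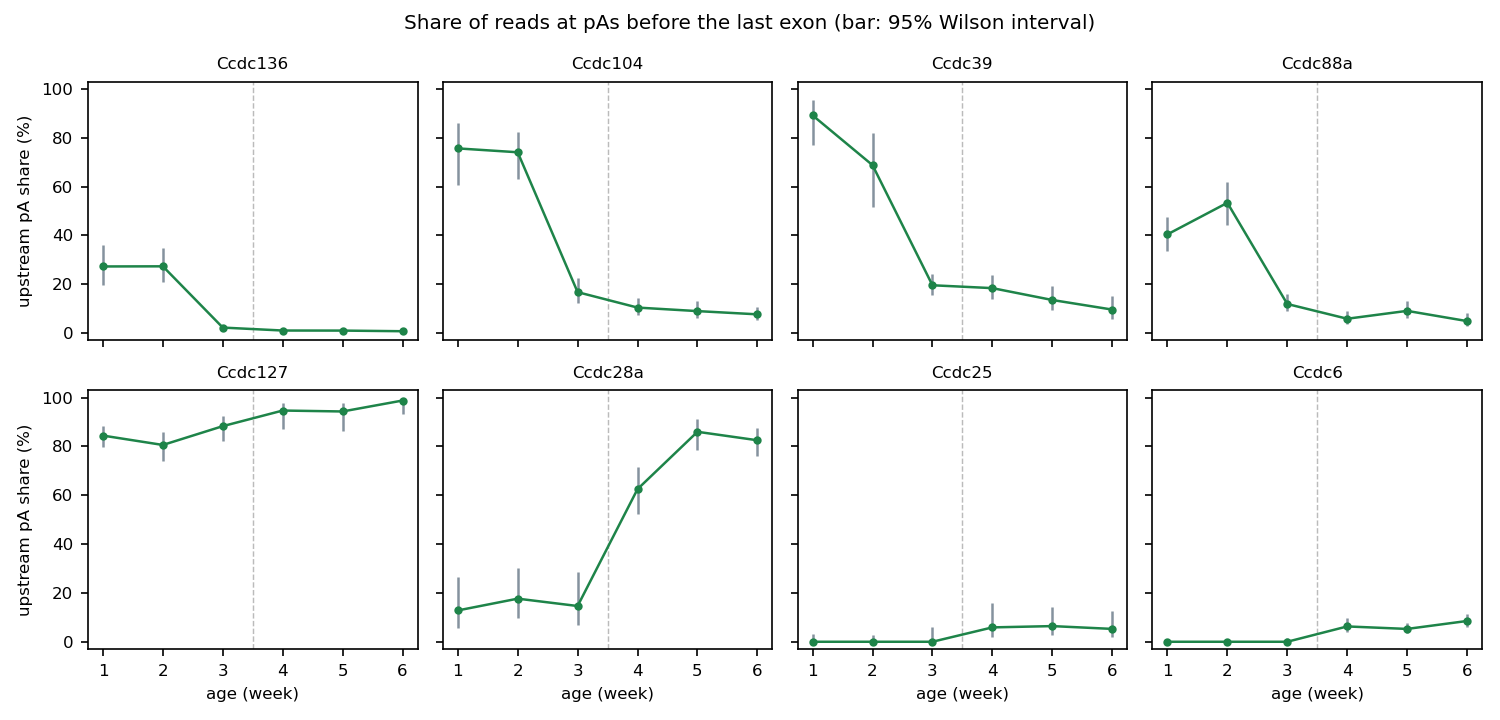
Panels show the 8 Ccdc genes whose ratio of upstream to last-exon reads passed the test, with age in weeks on the x axis and the percent of sense reads at pAs before the last exon on the y axis, 1 library per point, with 95% Wilson intervals and a dashed line between the age groups. Ccdc28a climbs from 14.6% at 3 weeks to 62.5% at 4 weeks, and Ccdc136, Ccdc104, Ccdc39 and Ccdc88a fall between 2 and 3 weeks.

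Some intronic pAs had more reads in the older libraries without a change in the ratio that passed. The Ccdc38 pA printed above, at a gencode transcript end, had 2, 0, 30, 207, 260 and 365 reads, against 714 reads at the last exon at 3 weeks and 574 at 6 weeks, and the gene had too few reads at 1 and 2 weeks for the test. The Ccdc46 intronic pA had 3, 0, 3, 45, 80 and 136 reads, and since its last exon rose as well, its upstream share was 44.3% at 1 week and 11.5% at 6 weeks (edgeR adjusted p = 0.101). In Ccdc45 a pA with neither hexamer had 0, 0, 0, 31, 41 and 39 reads and another with AATAAA 17, 18, 41, 58, 72 and 42 (edgeR adjusted p for the gene = 0.197). All 3 had their highest counts at 5 or 6 weeks, and they were chosen after their values were seen.

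Transcripts antisense to the region upstream of the TSS (uaRNA) were tested in 10 Ccdc genes, of which 3 were higher in the 4–6 week samples, with a background of 39.6% of 1063 genes, and none lower, with a background of 2.16%. None was lower at an unadjusted p under 0.05 either, while with the stated totals 1 was higher and 1 lower. Ccdc37 (Cfap100), an axoneme gene whose last exon had 1, 0, 23, 45, 48 and 74 reads, had 0, 1, 1, 22, 29 and 50 antisense reads (edgeR adjusted p = 0.00368). It passed with every library left out in turn, and its sense reads came earlier than its antisense reads. Ccdc27 had 18, 10, 10, 21, 19 and 47 antisense reads, with a log2 change of 1.99 ± 0.51 (edgeR adjusted p = 0.0220), and Ccdc101 had 10, 7, 4, 11, 13 and 8, with one of 1.38 ± 0.43 (edgeR adjusted p = 0.0406). For Ccdc101 the counts overlap between groups, and the call was lost without a filter on low counts (edgeR adjusted p = 0.125). For Ccdc27 the groups overlap in RPM, with 18 of 3847776 reads at 1 week and 19 of 4789102 at 5 weeks. Leaving out the 3 week library raised the count to 9 of 10, and leaving out 2 or 6 weeks left 1 of 13. Without the 3 week library the median log2 change of all uaRNAs tested was 4.66, against 2.52 with all libraries. Shares of all uaRNAs called are not given for these fits, nor for the stated totals.

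The most abundant antisense reads of the family were those of Ccdc94 (Yju2), a splicing factor, with 715, 566, 503, 322, 266 and 243. They lay in a gencode gene on that strand, Gm16712, and did not pass. Ccdc117, with 1, 0, 76, 127, 139 and 200, and Ccdc57, with 5, 32, 83, 82, 80 and 102, had higher counts from 3 weeks on and did not pass either.

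Promoters were searched for the X-box, a motif bound by RFX factors at genes of cilia, and for the shorter GTTGCC, which a perfect X-box can also hold. A RefSeq promoter on GRCm38.p6, from 250 bases before to 50 after the start, matched 117 of the 142 genes. Its palindromic consensus, on either strand, was found in 1 of them, the outer dynein arm docking factor Ccdc151, whose match on chromosome 9 begins at base -34 from the start, and in 0.529% of all 27025 promoters.
Ccdc151 promoter match: GTTTCCTTGGGAAC
The letters GTTGCC, on either strand, was found in 23.1% of the Ccdc promoters, in 6 of the 15 of the axoneme list and in 14.1% of all promoters. Those 6 were Ccdc103, Ccdc113, Ccdc147, Ccdc164, Ccdc37 and Ccdc96. No match says only that these letters are not in this window.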

How the data were processed

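The authors mapped 3'READS reads to mm9 with Bowtie 2 (version not given in the sources used here), kept PASS reads (2 or more Ts that do not align to the genome), clustered pAs within 24 nt, assigned them to RefSeq genes and deposited the raw read count of each pA in each library. The depth was 3512699 to 5450015 reads per library, 77.4% to 83.7% of the stated totals. Gene values exclude 384 pAs that the table gives to several genes.

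Last-exon counts, uaRNA counts and isoform ratios were tested over all genes with edgeR 4.0.16 (quasi-likelihood test, Benjamini-Hochberg adjustment, threshold 0.05). The ratio tests had library, isoform and isoform by group terms and no TMM scaling, which was used for last-exon and uaRNA counts. DESeq2 1.42.0 was an alternative for last-exon counts and isoform ratios. Ratio tests needed 20 reads in every library, and CDS-APA also 5 upstream reads. Each test was run on simulated counts with a fixed spread between libraries. A log2 change of 2 was recovered for 97% of genes in expression and 99% in uaRNA. In 3'UTR-APA it was recovered for 22% and in CDS-APA for 7%, and a change of 4 for 78% and 75%. A ratio that did not pass may therefore still have changed. Intervals are 95% Wilson (shares) or exact (ratios of counts), and a count of 0 was read as up to 3. Wilson intervals were computed with scipy 1.17.1.

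Members, lists and tests were chosen with earlier results of these data known, and adjacent-week ratios after the data were seen. Named were the 10 largest changes each way that passed in expression, 3'UTR-APA and CDS-APA, 5 for uaRNA, the 4 most abundant genes of each role list and the 5 largest intronic shares per group. Other marker lists were tested for level only: none of 5 Leydig markers was lower and 1 was higher, 3 of 3 peritubular, vascular and blood markers were lower, 2 of 5 spermatogonia markers were lower, 1 of 9 spermatocyte markers was higher, 7 of 8 Sertoli markers were lower and 6 of 6 spermatid markers were higher. Of 35 axoneme genes outside the family 6 were higher. Over all genes tested 17.7% were higher and 22.5% lower. Alternatives were other scalings, filters, read sets and leaving out each library.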

Additional observations from a re-analysis of the deposited data

How the results depend on the processing

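No paired analysis was possible because each week is a single library and the replicate numbers only order the weeks. In expression, with the stated PASS totals 15 Ccdc genes were higher and 24 lower, and Ccdc126 (-0.15), Ccdc157 (-0.21), Ccdc53 (-0.20) and Ccdc93 (-0.0235) turned from higher to lower, none of them past the threshold. DESeq2 called 47 higher, beside 29.4% of all genes. With 1 library left out the counts ran from 4 to 77 higher and 0 to 11 lower in expression, 0 to 1 lengthened and 9 to 16 shortened in 3'UTR-APA, 2 to 6 higher and 0 to 9 lower in CDS-APA, and 1 to 9 higher and 0 to 0 lower in uaRNA. Without the 5 week library no gene of the table was lower in expression. Other shares of all genes are not given for the fits with 1 library left out, so their counts are no result about the family. Of the 27 and 6 expression calls, 4 and 0 held with each library left out, as did 9 of 14 in 3'UTR-APA and 2 of 8 in CDS-APA. A minimum of 50 reads left 5 shortened genes of 18 tested, since fewer genes entered. For uaRNA the stated totals gave 1 higher and 1 lower, and no filter gave 6 higher of 49. No share of all genes or uaRNAs is given for these settings, so their counts are no result about the family either. The causes of the other shifts were not tested. Each week rests on 1 library, and genes under 20 reads were too shallow for a time course.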
